A study of Homo sapiens with 6 samples.

Results

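The plasminogen activators and the serpins of squamous epithelium were followed in Cal27, an established cell line of human tongue squamous cell carcinoma. The members were 9 genes, namely PLAU, PLAUR, PLAT, SERPINE2, SERPINB1, SERPINB2, SERPINB3, SERPINB4 and SERPINB5, each taken with every probe set (the array's unit of measurement, several short oligonucleotides aimed at the same transcript) that the array's annotation lists under that symbol alone. Of these, 8 genes with 17 probe sets were found among the 19775 genes named in this way on the array. No probe set of SERPINB2 was listed under that symbol alone, and this gene was not analysed here.

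Urokinase (PLAU) and tissue-type plasminogen activator (PLAT) are serine proteases that cut plasminogen to plasmin, a protease that digests fibrin and extracellular matrix and activates matrix metalloproteinases. The urokinase receptor (PLAUR) holds urokinase at the cell surface. Serpins are suicide inhibitors: the protease cuts a loop of the serpin and stays trapped in a covalent complex. SERPINE2 and SERPINB2 inhibit plasminogen activators, whereas the clade B serpins of stratified epithelium mostly act inside the cell on cathepsins and on proteases of neutrophils and mast cells, and SERPINB3 and SERPINB4 are known as the squamous cell carcinoma antigens.

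To explore how the members varied after silencing of interleukin-1β (IL-1β), 6 RNA samples were compared on Affymetrix Human Genome U133 Plus 2.0 arrays. In 3 of them IL-1β had been targeted by a short hairpin RNA delivered by lentivirus (LV-shIL-1β), and in the other 3 the hairpin was scrambled (LV-shNC). Both groups had been through lentiviral infection with polybrene and 2 weeks of selection in 2 µg/mL puromycin, and 6 µg of total RNA was labelled per array. Both are stably selected derivatives of 1 cell line, and no source says whether arrays with the same hairpin were separate cultures. The p-values therefore measure spread among these 6 arrays, which could be technical alone.

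The 54675 signals of each array are intensities on a linear scale, with medians of 18.4 to 18.9 per array. A probe set was tested when 3 or more arrays exceeded a signal of 18.6, the overall median, which left 27566 after removal of the 62 control probe sets. The lowest correlation of log2 signal between arrays of a group was 0.9948, close to the highest between the groups (0.9942). IL1B itself read 1568.8, 1569.4 and 1596.5 in LV-shIL-1β cells, against 2676.9, 2611.1 and 2494 in LV-shNC cells on probe set 205067_at. The log2 fold change was −0.72 with an SE of 0.04 (limma, adjusted p = 2.46e-05 by the Benjamini-Hochberg method), so the hairpin's target was lower but still present. Of 9 epithelial markers, KRT6A, KRT17 and TP63 had no probe set of 1 symbol, and of the 6 tested (KRT5, KRT14, CDH1, EPCAM, DSG3 and SFN) 0 passed as higher and 2 as lower, KRT5 (−0.32) and KRT14 (−0.35). Over all 12322 genes, each on its brightest tested probe set, 4.03% were called higher and 4.50% lower. The epithelial list had summed signals of 19755.3 to 20147.5 in LV-shIL-1β cells and 21686.5 to 22562.9 in LV-shNC cells. In RNA from whole cultures, fewer cells of a type and less RNA per cell cannot be told apart.

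SERPINB4 and SERPINB3 lie beside each other in the serpin cluster of chromosome 18, and their promoters are nearly identical. These sequences run from 250 bases before to 50 bases after the start of the gene. They are shown because the array separates the genes only in part and only SERPINB4 was called. Whether the 2 genes differed in their change was not settled, as given below. Both are on the minus strand of GRCh38.p14 (RefSeq), at chr18:63644207-63644506 for SERPINB4 and chr18:63661844-63662143 for SERPINB3, and capitals mark the bases that differ.
SERPINB4: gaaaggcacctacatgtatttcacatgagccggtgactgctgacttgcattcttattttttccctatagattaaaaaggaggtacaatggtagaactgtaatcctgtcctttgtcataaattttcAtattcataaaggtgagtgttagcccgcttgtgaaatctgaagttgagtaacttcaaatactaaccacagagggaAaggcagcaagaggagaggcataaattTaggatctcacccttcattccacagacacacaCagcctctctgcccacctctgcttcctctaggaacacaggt
SERPINB3: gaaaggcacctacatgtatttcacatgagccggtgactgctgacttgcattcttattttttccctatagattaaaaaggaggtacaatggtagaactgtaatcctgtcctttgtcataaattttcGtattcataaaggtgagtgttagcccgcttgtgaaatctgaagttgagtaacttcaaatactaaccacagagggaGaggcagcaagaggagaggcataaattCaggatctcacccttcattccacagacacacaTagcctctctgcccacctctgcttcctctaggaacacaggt
Of the 300 bases, 296 are identical (98.7%), and the substitutions, with the base of SERPINB4 first and positions counted from 1 at the 5′ end, are A126G, A201G, T228C and C260T. The first 3 lie upstream of the start and the last lies in the first transcribed bases.

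On the array, SERPINB4 had the largest change among the tested member probe sets. Its single probe set 211906_s_at read 456, 391 and 413.1 in LV-shIL-1β cells, against 284.4, 328.6 and 328.4 in LV-shNC cells. The lowest LV-shIL-1β array was above the highest LV-shNC array. SERPINB4, an inhibitor of cathepsin G and mast cell chymase, rose 1.34-fold (95% confidence interval 1.19 to 1.51). On the log2 scale the change was 0.42 ± 0.08 (SE, adjusted p = 0.0107 by limma), with means of 420 ± 33.0 and 313.8 ± 25.4 (SD, n = 3 each) in LV-shIL-1β and LV-shNC cells. The call was kept with each array left out in turn, at adjusted p = 0.0239 to 0.0383, and lost in the replicate block (0.0672) and with the methods' t-test (0.144 after adjustment).

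SERPINB3, which inhibits cathepsins L, K and S, did not pass the test on either of its probe sets. Probe set 209719_x_at read 1186.6, 1031.5 and 1144.2 in LV-shIL-1β cells and 1019.8, 1079.9 and 1045.6 in LV-shNC cells, and probe set 209720_s_at read 675.6, 479 and 418.1 in LV-shIL-1β cells and 394.4, 598.4 and 490.5 in LV-shNC cells. The groups overlapped on both, and the second probe set varied widely within each group. The log2 fold changes were 0.09 ± 0.05 (adjusted p = 0.347) and 0.08 ± 0.18 (adjusted p = 0.845), with intervals of 0.981- to 1.16-fold and 0.800- to 1.39-fold, so on the second a change as large as that of SERPINB4 lay within the interval.

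To determine whether SERPINB4 differed from SERPINB3 in its response, the difference of their log2 signals was taken within each array. Against probe set 209719_x_at it was −1.42 ± 0.05 in LV-shIL-1β cells and −1.74 ± 0.09 in LV-shNC cells (SD, n = 3 each), a shift of 0.33 with no overlap between the groups (two-sided exact permutation p = 0.1, the smallest that 3 against 3 arrays can give). Against 209720_s_at the shift was 0.35, but the groups overlapped (exact permutation p = 0.2). After adjustment over the 5 such tests made here, the values were 0.125 and 0.2. No outcome of a test of this size could have passed 0.05, so it does not settle whether the genes differed.

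A further probe set, 210413_x_at, is listed for SERPINB4 and SERPINB3 together and therefore falls outside the selection. It read 812.3, 689.1 and 751.3 in LV-shIL-1β cells, against 649.9, 672.9 and 661.9 in LV-shNC cells. The groups did not overlap, and the log2 fold change of 0.18 ± 0.06 did not pass (adjusted p = 0.107). Because the transcripts of these genes are close to identical, hybridisation of either to the probe sets of the other cannot be told apart from these signals, and each value of SERPINB4 and SERPINB3 is uncertain in that respect.

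SERPINE2, also called protease nexin-1, is a secreted inhibitor of thrombin, urokinase and plasmin. Its probe set 212190_at read 480.2, 525.6 and 545.4 in LV-shIL-1β cells, against 416.4, 432.5 and 421 in LV-shNC cells, and the groups did not overlap. SERPINE2 rose 1.22-fold (95% interval 1.12 to 1.33, log2 fold change 0.29 ± 0.06, adjusted p = 0.0163). Omission of LV-shIL-1β array 2 (adjusted p = 0.0853), LV-shIL-1β array 3 (0.0685) or LV-shNC array 3 (0.0581) took the call away, while the log2 fold change stayed between 0.25 and 0.34.

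The second probe set of SERPINE2, 227487_s_at, lay below the filter on all 6 arrays and was not tested. It read 14.93, 15.62 and 12.35 in LV-shIL-1β cells, against 9.338, 9.11 and 9.012 in LV-shNC cells, so that its groups did not overlap either. With the filter removed its log2 fold change was 0.64 ± 0.11 (limma, adjusted p = 0.0133), and at 16 added to every signal with no filter, a setting chosen after these values were seen, it was 0.27 (adjusted p = 0.0162). The size of the change at such low signals thus moved with the constant added.

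**Figure D1:**
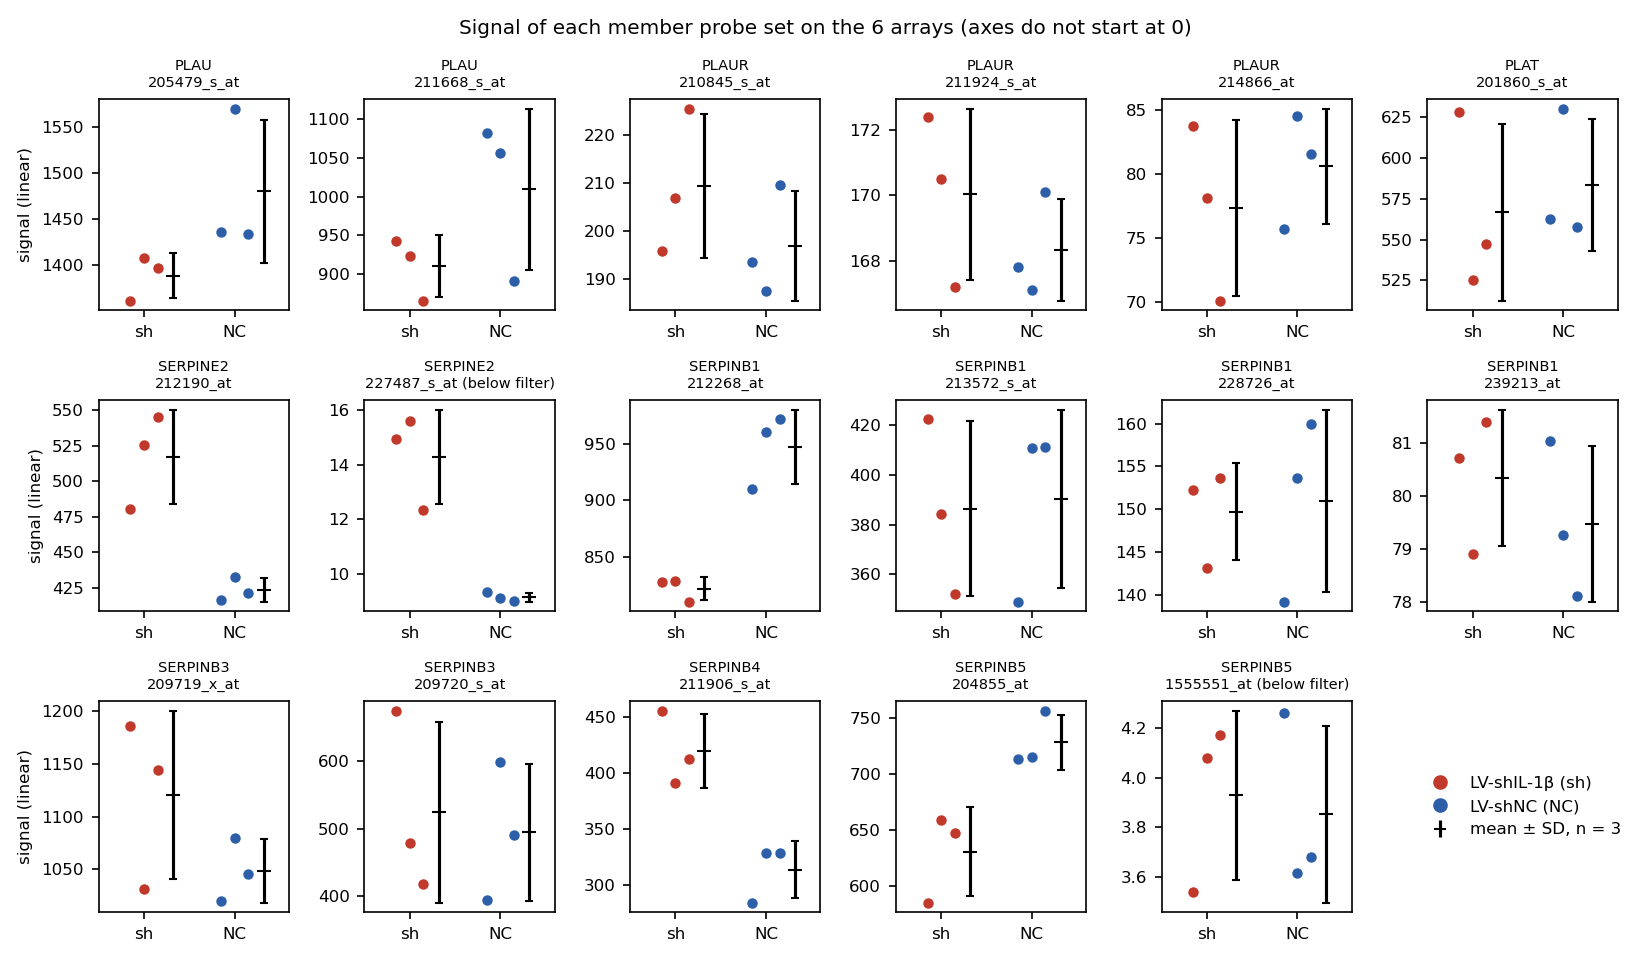
Signal (linear, arbitrary units, axes not starting at 0) of each of the 17 member probe sets on the 6 arrays, with LV-shIL-1β arrays in red on the left, LV-shNC arrays in blue on the right, and mean ± SD (n = 3) as black bars. SERPINB4 (391 to 456 in LV-shIL-1β cells and 284.4 to 328.6 in LV-shNC cells) and SERPINE2 212190_at separate upward, SERPINB1 212268_at and SERPINB5 204855_at separate downward, and most other panels overlap.

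SERPINB1, an inhibitor of neutrophil elastase, cathepsin G and proteinase 3, gave a split result over its 4 probe sets. On 212268_at, the signal was 827.1, 827.9 and 809.8 in LV-shIL-1β cells, against 909.9, 960.7 and 972.3 in LV-shNC cells. All LV-shIL-1β arrays were below all LV-shNC arrays, and the level fell by 13.3% (95% interval −18.8 to −7.40%, log2 fold change −0.21 ± 0.04, adjusted p = 0.0202). It no longer passed when LV-shIL-1β array 2 (adjusted p = 0.0780) or 3 (0.0792) or LV-shNC array 2 (0.0803) or 3 (0.0827) was omitted, with log2 fold changes of −0.23 to −0.19 over all 6 omissions.

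The other probe sets of SERPINB1 did not pass. Probe set 213572_s_at read 422.4, 384.3 and 352.1 in LV-shIL-1β cells and 348.9, 410.9 and 411.3 in LV-shNC cells (log2 fold change −0.01 ± 0.08, adjusted p = 0.939). Probe set 228726_at read 152.3, 143.2 and 153.6 in LV-shIL-1β cells and 139.2, 153.7 and 160 in LV-shNC cells (−0.01 ± 0.07, adjusted p = 0.948), and 239213_at read 80.72, 78.9 and 81.39 in LV-shIL-1β cells and 81.04, 79.27 and 78.12 in LV-shNC cells (0.02 ± 0.06, adjusted p = 0.911). The groups overlapped on each of the 3. Within each array, the log2 signal of 212268_at relative to these probe sets differed by −0.19, −0.19 and −0.22 between LV-shIL-1β and LV-shNC cells, without overlap. Each difference had an exact permutation p = 0.1 (adjusted 0.125). A p of 0.1 is the smallest that 3 against 3 arrays can give, so no such test could pass 0.05. These tests therefore do not settle whether the probe sets differed. Averaged over its probe sets, SERPINB1 had a log2 fold change of −0.05 ± 0.05 and was not called (adjusted p = 0.537), so the fall is a statement about 1 probe set and not about the gene.

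SERPINB5, or maspin, is a clade B serpin of epithelial cells that does not inhibit proteases in the usual way and is known as a tumour suppressor in breast epithelium. Its probe set 204855_at read 584.8, 658.8 and 647.1 in LV-shIL-1β cells, against 712.9, 714.7 and 756.6 in LV-shNC cells. The groups did not overlap, with means of 630.2 ± 39.8 and 728.1 ± 24.7 (SD, n = 3 each) in LV-shIL-1β and LV-shNC cells. The log2 fold change of −0.21 ± 0.06 missed the threshold by a small margin (adjusted p = 0.0515, 95% interval −0.33 to −0.09 before adjustment). It passed under a stricter filter (0.0499), quantile normalization (0.0287) and array weights (0.0338). In the fit with 1 value per gene it also passed (0.0270), although its single tested probe set left nothing to average there. It did not pass with no filter (0.0746), median centring (0.0675) or no variance trend (0.121). The replicate block (0.138), the methods' t-test (0.196 after adjustment) and each omission of 1 array (0.0805 to 0.159) did not call it either. The second probe set, 1555551_at, read 3.54 to 4.17 in LV-shIL-1β cells and 3.62 to 4.26 in LV-shNC cells, below the filter on all arrays, and was not tested.

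**Figure D2:**
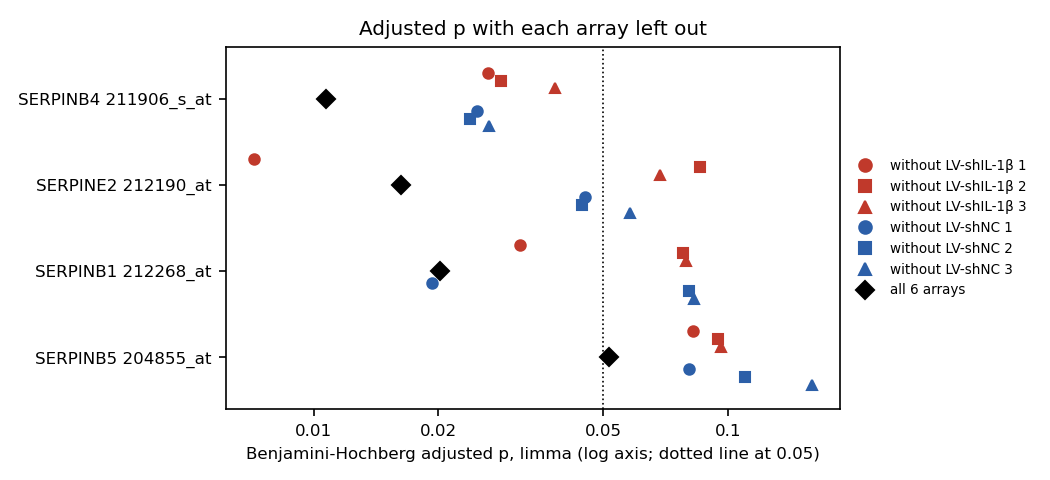
Benjamini-Hochberg adjusted p (log axis) of 4 member probe sets with all 6 arrays (black) and with each array left out (LV-shIL-1β arrays in red, LV-shNC arrays in blue), with a dotted line at 0.05. SERPINB4 stayed left of the line in every omission, at 0.0239 to 0.0383, SERPINE2 and SERPINB1 crossed it in some, and SERPINB5 lay right of it throughout.

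PLAU, the secreted urokinase, did not pass on either probe set. It read 1361.5, 1408 and 1397.3 in LV-shIL-1β cells, against 1436.6, 1570.2 and 1434 in LV-shNC cells on 205479_s_at, and 943, 923.1 and 865.3 in LV-shIL-1β cells, against 1081.9, 1056.8 and 890.5 in LV-shNC cells on 211668_s_at. The groups of the first did not overlap and those of the second did. The log2 fold changes of −0.09 ± 0.04 (adjusted p = 0.263) and −0.15 ± 0.07 (adjusted p = 0.267) had 95% intervals of 0.877- to 1.01-fold and 0.810- to 1.01-fold, so a rise above 1.01-fold lay outside both intervals and falls down to their lower limits lay inside.

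PLAUR, the surface receptor of urokinase, overlapped between the groups on its 3 probe sets. On 210845_s_at it read 195.8, 206.8 and 225.4 in LV-shIL-1β cells, against 193.7, 187.5 and 209.5 in LV-shNC cells (log2 fold change 0.09 ± 0.07, adjusted p = 0.505). Probe sets 211924_s_at (167.2 to 172.4 in LV-shIL-1β cells and 167.1 to 170.1 in LV-shNC cells) and 214866_at (70.12 to 83.78 in LV-shIL-1β cells and 75.69 to 84.57 in LV-shNC cells) had log2 fold changes of 0.01 ± 0.05 and −0.06 ± 0.08 and did not pass (adjusted p = 0.904 and 0.709). Over the 3 probe sets the 95% limits ran between 0.843- and 1.18-fold.

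PLAT, the activator best known from fibrinolysis in blood vessels, read 627.5, 525.1 and 547 in LV-shIL-1β cells, against 562.8, 629.9 and 557.6 in LV-shNC cells on its only probe set. One array of each group stood above the other 2 of that group, and the groups overlapped. The log2 fold change was −0.04 ± 0.07 (adjusted p = 0.772, 95% interval 0.865- to 1.09-fold).

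Over all members, 15 of the 17 probe sets were tested, and 3 passed, 2 higher and 1 lower, which is 20% of the probe sets tested. Over all 27566 probe sets, 7.05% were called, 3.68% as higher and 3.37% as lower. The groups did not overlap on 5 of the 15 member probe sets (33.3%), against 27.9% of all probe sets tested, so separation of the arrays by itself was nearly as frequent elsewhere. The median log2 fold change of the 15 was −0.01, against 0.01 over all probe sets, and the range ran from −0.21 to 0.42. By role, 0 of the 6 probe sets of the activators and their receptor passed (limma, with 0 at an unadjusted p under 0.05 and 0 by the methods' t-test after adjustment), against the 1 tested probe set of SERPINE2 and 2 of the 8 of the clade B serpins. Among the 12 probe sets that did not pass, the 95% intervals lay within 0.794- and 1.39-fold. With a criterion of a fold over 1.5 and an unadjusted p under 0.05 with no filter, only the dim SERPINE2 probe set 227487_s_at qualified.

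**Figure D3:**
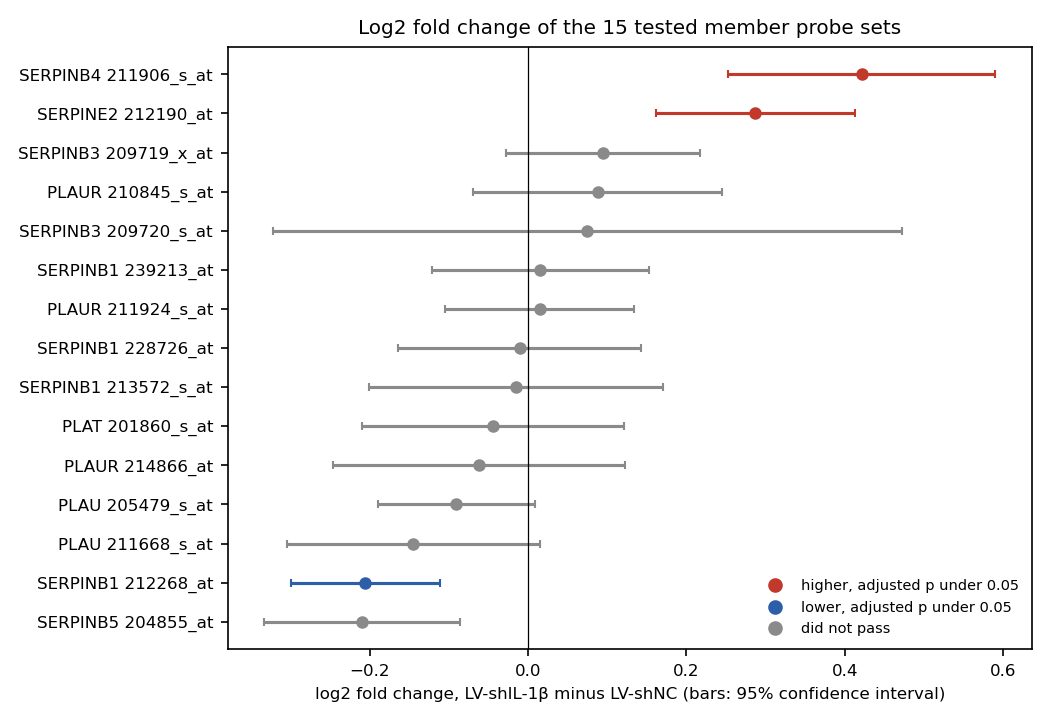
Log2 fold change (LV-shIL-1β minus LV-shNC) of the 15 tested member probe sets, with 95% confidence intervals from limma as bars. SERPINB4 (0.42) and SERPINE2 (0.29) in red passed as higher, SERPINB1 212268_at (−0.21) in blue passed as lower, and grey probe sets did not pass the adjusted threshold.

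Some properties of the RNA moved with the groups. The log2 ratio of the 3′ to the 5′ control probe sets of GAPDH was 0.02 to 0.05 in LV-shIL-1β cells and −0.06 to 0.01 in LV-shNC cells, without overlap, and that of ACTB was 0.33 to 0.44 in LV-shIL-1β cells and 0.30 to 0.55 in LV-shNC cells. Of 8 fibroblast markers, 5 were tested and 3 were called lower (COL1A2, LUM and VIM), against 4.50% of all genes. COL1A2 and LUM passed the filter only through the 3 LV-shNC arrays, where they were high, so their place in this count was set by the difference itself. COL1A1 was not called on its brightest probe set but was lower on 2 others of its 4 tested (log2 fold changes −1.08 and −0.73, adjusted p = 0.00103 and 0.00702). The fibroblast list had summed signals of 159.8 to 173.6 in LV-shIL-1β cells and 208.4 to 229.4 in LV-shNC cells, while COL3A1, DCN and FAP were below the filter. The call of COL1A2 was lost when LV-shIL-1β array 2 or 3 was omitted (adjusted p up to 0.0598). Of 7 leukocyte markers, 2 were tested and CD14 was called higher, against 4.03% of all genes. The other, CD79A, went the other way without overlap of the groups (−0.33 ± 0.12) and was not called (limma, adjusted p = 0.127). The leukocyte list had summed signals of 124.7 to 131.3 in LV-shIL-1β cells and 110.9 to 116.8 in LV-shNC cells. PTPRC, ITGAM, CD3E and TYROBP were below the filter, and CD68 had no probe set of 1 symbol. Of 5 endothelial markers 1 was tested, PECAM1, which did not pass (limma, adjusted p = 0.882). It read 23.41 to 25.94 in LV-shIL-1β cells and 24.56 to 25.7 in LV-shNC cells, with overlap. The endothelial list had summed signals of 69.0 to 71.7 in LV-shIL-1β cells and 72.2 to 74.5 in LV-shNC cells. CDH5, VWF, KDR and TEK in it were below the filter. The part of these differences in the changes of the members was not tested.

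Because 4 of the members belong to the clade B cluster on chromosome 18, their neighbours there were described as well. The cluster holds, in order, SERPINB5, SERPINB12, SERPINB13, SERPINB4, SERPINB3, SERPINB11, SERPINB7, SERPINB2, SERPINB10 and SERPINB8. Of these 10 genes, 9 had a probe set of 1 symbol and 6 a tested one. SERPINB13, also called headpin, an inhibitor of cathepsins L and K in stratified epithelium and the direct neighbour of SERPINB4, read 258.1, 272.3 and 295.4 in LV-shIL-1β cells, against 442.6, 456.5 and 468.2 in LV-shNC cells (log2 fold change −0.73 ± 0.06, adjusted p = 0.000254). The call was kept with each array omitted in turn (adjusted p up to 0.00432), and SERPINB13 was lower on each of its 4 tested probe sets, with log2 fold changes of −0.73 to −0.46. SERPINB7, known for loss-of-function mutations in a palmoplantar keratoderma, had a log2 fold change of −0.31 ± 0.08 and did not pass (adjusted p = 0.0515). SERPINB8 gave 0.19 ± 0.10 and −0.15 ± 0.10 on its 2 probe sets, neither of which passed (adjusted p = 0.297 and 0.443). Neighbouring genes of the cluster thus stood on both sides of 0.

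**Figure D4:**
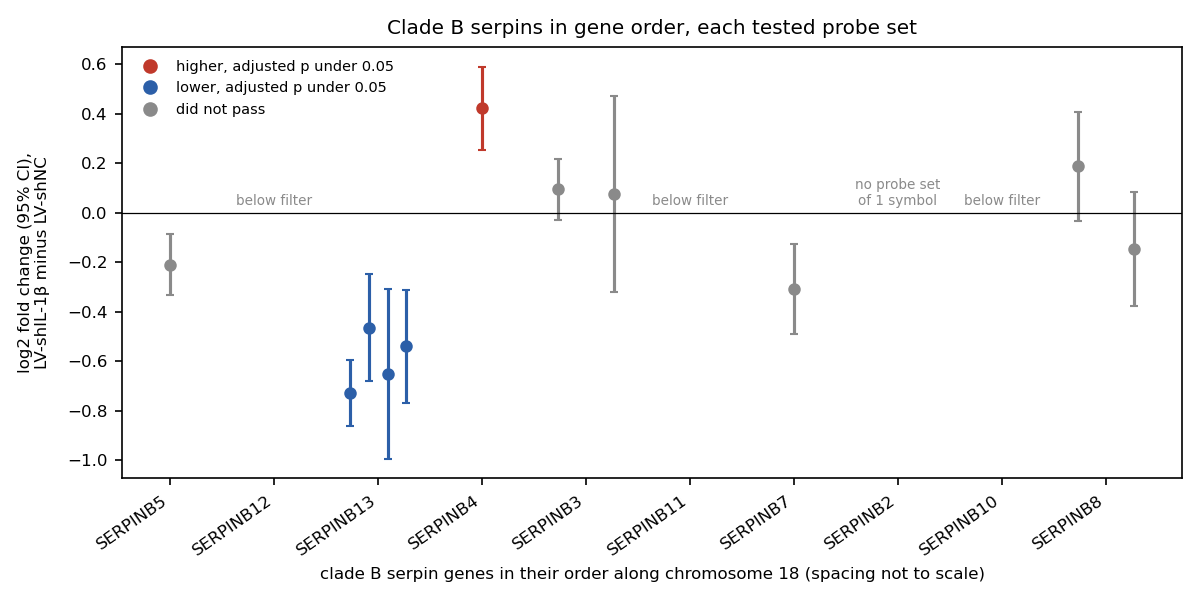
Log2 fold change (LV-shIL-1β minus LV-shNC, bars 95% confidence interval) of each tested probe set of the clade B serpins, in the order of the genes along chromosome 18 with spacing not to scale. The 4 probe sets of SERPINB13 in blue (−0.73 to −0.46) stand next to SERPINB4 in red (0.42), and grey probe sets did not pass.

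Short promoter windows were searched on both strands for 5 motifs, AP-1 (TGANTCA), STAT (TTCNNNGAA), STAT6 (TTCNNNNGAA), the TATA box (TATAAA) and an NF-κB consensus, because IL-1 signals through NF-κB and AP-1. The search covered 10 promoters of 8 of the members, and PLAT was not searched. The windows with a match are shown with the motif in capitals, read 5′ to 3′ along the gene.
PLAUR, AP-1, 186 bases before the start (chr19:43670337-43670367, minus strand): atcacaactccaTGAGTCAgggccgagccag
SERPINB5, AP-1, 146 bases before the start (chr18:63476800-63476830, plus strand): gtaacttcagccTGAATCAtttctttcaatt
SERPINB2, AP-1, 102 bases before the start (chr18:63887591-63887621, plus strand): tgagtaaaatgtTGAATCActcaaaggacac
SERPINB2, TATA, 30 bases before the start (chr18:63887663-63887692, plus strand): ggggcaaagctgTATAAAaccagtcattac
SERPINB1, STAT, 208 bases before the start (chr6:2842051-2842083, minus strand): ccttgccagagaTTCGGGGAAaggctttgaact
No window of PLAU, SERPINE2, SERPINB3 or SERPINB4 held any of the 5. Over all 35116 promoters of this length, AP-1 was found in 7.71%, STAT in 7.66%, STAT6 in 6.44%, TATA in 11.5% and the NF-κB consensus in 5.91%. A match is only a run of letters in this window and says nothing of binding in these cells.

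To place the members in their pathway, 91 other genes in 7 lists were examined, each on its brightest tested probe set. Of 84 with a probe set, 51 were tested, and 2 were called higher (3.92%) and 9 lower (17.6%). Over all genes the shares were 4.03% higher and 4.50% lower. The median log2 fold change of the 51 was −0.07, against 0.00 over all genes. The lists were chosen with results of these arrays known, so their counts are a description.

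Among 12 tested regulators and receptors of plasminogen, S100A10 and THBD fell and VLDLR rose. S100A10, the partner of annexin A2 that binds plasminogen at the cell surface, read 4471.7, 4780.5 and 4659.8 in LV-shIL-1β cells, against 5518.5, 5362.3 and 5426.7 in LV-shNC cells (log2 fold change −0.23 ± 0.03, adjusted p = 0.00300). Every LV-shIL-1β array was below every LV-shNC array on this probe set, 200872_at. On the dimmer 238909_at the groups overlapped and S100A10 was not called (−0.14 ± 0.09, adjusted p = 0.424). ANXA2, the partner of S100A10, had a log2 fold change of 0.01 ± 0.03 and did not pass (adjusted p = 0.819). THBD, or thrombomodulin, had −0.28 ± 0.07 (adjusted p = 0.0387), and VLDLR, an endocytic receptor of the LDL receptor family, had 0.26 ± 0.07 (adjusted p = 0.0463). Both of these calls were lost whichever array was left out, at adjusted p = 0.0540 to 0.125 for THBD and 0.0936 to 0.128 for VLDLR. Plasminogen itself (PLG) lay below the filter on its 3 probe sets.

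Among 8 tested cathepsins and leukocyte proteases, the cathepsins CTSV and CTSH fell. CTSV, a cathepsin L-like protease of keratinocytes and thymus, read 367.2, 371.1 and 392.5 in LV-shIL-1β cells, against 495.3, 487.4 and 488.3 in LV-shNC cells (log2 fold change −0.38 ± 0.05, adjusted p = 0.00205). CTSH, a lysosomal aminopeptidase, had −0.36 ± 0.05 (adjusted p = 0.00494), whereas CTSL had 0.01 ± 0.05 and did not pass (adjusted p = 0.953). The leukocyte proteases ELANE, PRTN3, CMA1 and GZMB, on which SERPINB1, SERPINB4 and their relatives act in other tissues, were all below the filter. CTSG, or cathepsin G, passed the filter on all 6 arrays but was not called (log2 fold change −0.15 ± 0.11, adjusted p = 0.445). Its signals were close to the filter, with 18.86 to 20.8 in LV-shIL-1β cells and 19.34 to 24.04 in LV-shNC cells. CTSB was not called on its brightest probe set (−0.07 ± 0.03, adjusted p = 0.242), but was called lower on 213275_x_at (−0.17, adjusted p = 0.0492). Its other tested probe sets, 200838_at, 227961_at and 213274_s_at, had log2 fold changes of −0.06, −0.14 and −0.05. None of these was called (adjusted p = 0.565, 0.166 and 0.566).

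Of 10 tested epithelial serine proteases and protease-activated receptors, 2 fell. PRSS23, a secreted serine protease, read 1383.6, 1415.1 and 1368.1 in LV-shIL-1β cells, against 1850.3, 1855.1 and 1789 in LV-shNC cells (log2 fold change −0.40 ± 0.04, adjusted p = 0.000338), and its 2 other tested probe sets were also called lower. TMPRSS11D, the human airway trypsin-like protease, had −0.39 ± 0.07 (adjusted p = 0.0150), a call lost without LV-shIL-1β array 2 or LV-shNC array 2 (adjusted p up to 0.0776). F2RL1, the receptor cut by trypsin-like proteases, had no probe set of 1 symbol and was not analysed here.

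Of 10 tested protease inhibitors that are not serpins, PI3 rose and CSTB fell. PI3, or elafin, an epithelial inhibitor of neutrophil elastase, read 3311.7, 3477 and 3626.8 in LV-shIL-1β cells, against 2885.6, 2935.4 and 2814.7 in LV-shNC cells (log2 fold change 0.27 ± 0.04, adjusted p = 0.00361). CSTB, or cystatin B, a cytosolic inhibitor of cathepsins, had −0.17 ± 0.03 (adjusted p = 0.00754) on 201201_at. On its dimmer probe set 236449_at the groups overlapped and it was not called (−0.12 ± 0.09, adjusted p = 0.452). Of the 4 tested serpins of other clades, SERPINA1, the inhibitor of neutrophil elastase in plasma, was lower at signals close to the filter, with 17.65, 19.75 and 18.47 in LV-shIL-1β cells and 31.13, 28.52 and 25.64 in LV-shNC cells (log2 fold change −0.61 ± 0.10, adjusted p = 0.00729). Of its LV-shIL-1β arrays 1 exceeded the filter, against 3 of its LV-shNC arrays, so it passed the filter largely through the group where it was high. Its log2 fold change was −0.36 with 16 added to each signal, and the methods' t-test gave 0.0853 after adjustment. Of the HGF-MET axis, whose ligand is activated by proteases of this family, HGF and HGFAC were below the filter. The 3 tested genes were MET, MST1 and MST1R, and limma called 0 of them on their brightest probe sets. On these, 0 had an unadjusted p under 0.05 and 0 passed the methods' t-test after adjustment. On the dimmer MST1 probe set 205614_x_at the groups did not overlap, but it was not called (−0.32 ± 0.09, limma, adjusted p = 0.0648).

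**Figure D5:**
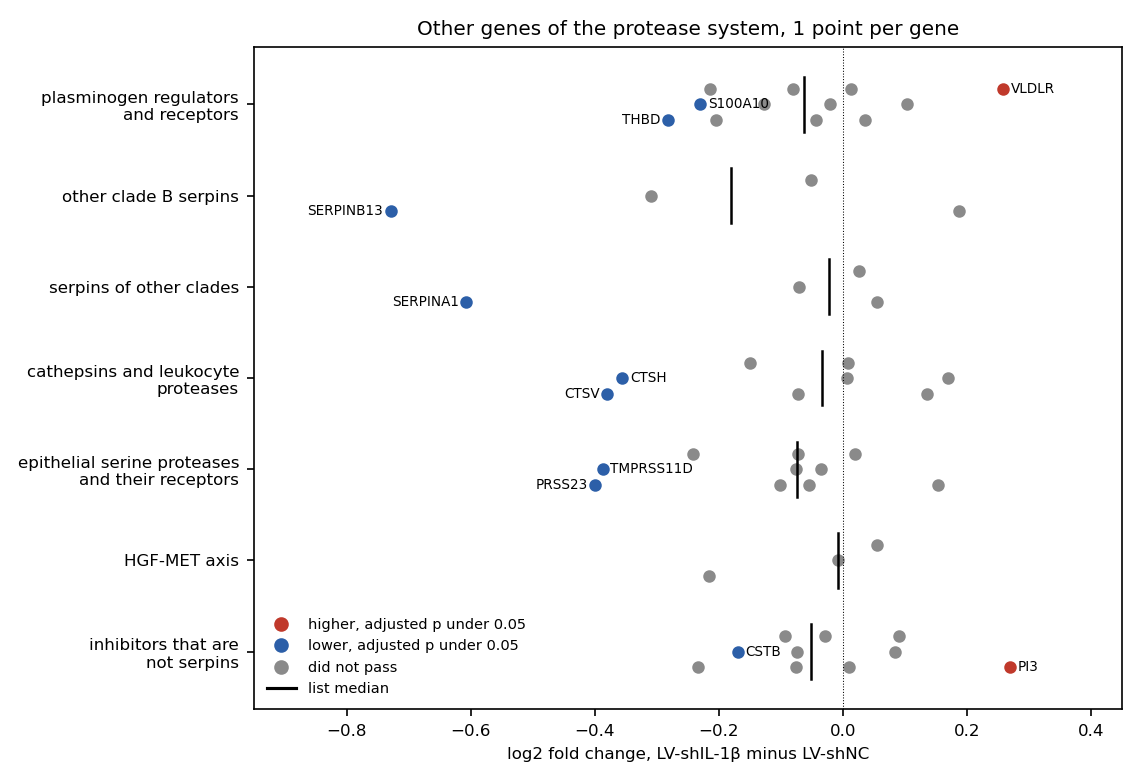
Log2 fold change (LV-shIL-1β minus LV-shNC) of the 51 tested genes of 7 lists of the protease system, 1 point per gene on its brightest tested probe set, with the list median as a black line. Called genes are named, with VLDLR and PI3 in red on the right and 9 genes in blue on the left, of which SERPINB13 (−0.73) lies farthest out.

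The genes whose centred log2 signal over the 6 arrays lay nearest to that of SERPINB4, of 12321 genes compared by Euclidean distance, were FZD3 (distance 0.0875), SHTN1 (0.103) and TBL1XR1 (0.105). For SERPINB1 212268_at they were ZFYVE21 (0.0332), NUSAP1 (0.0434) and GALNT1 (0.0482). The 6 points are shared by all genes and hold the difference between the groups, so the likeness is a description.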

How the data were processed

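Total RNA from Cal27 cells with LV-shIL-1β or LV-shNC (3 arrays each, grouped by the labels) was hybridised to 1-colour arrays. The authors deposited linear intensities, 1 value for each probe set on each array. MAS5 is the tool named in the submitters' processing notes, without a version. How it was scaled is not given in the sources used here, and scaling across arrays could make the spread between arrays smaller.

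Deposited signals were log2-transformed without further normalization. Probe sets above the overall median signal on 3 or more arrays entered a two-sided fit of LV-shIL-1β minus LV-shNC (R 4.3.3 with limma 3.58.1, lmFit and trended eBayes), with Benjamini-Hochberg adjustment over all 27566 and a threshold of 0.05. The script was tested on simulated data. In the platform annotation, 41097 probe sets carried 1 symbol, 1801 several and 11777 none, and 41043 of the first matched a RefSeq gene, with 0 symbols changed. Promoters came from RefSeq GRCh38.p14. Pairs of probe sets were compared by an exact permutation test over arrays. Precision is limited by the number of arrays.

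The members and lists were chosen with earlier results of these data known. Named were all member probe sets, IL1B, PLG, ANXA2, S100A10 and F2RL1, of each list up to 4 called genes with the largest change, and the 3 nearest genes to the called members with the largest rise and fall. SERPINB7, SERPINB8, CTSB, CTSG, CTSL, MET, MST1, MST1R, CD79A, PECAM1 and the filtered-out genes were named after their values were seen. Alternatives were a constant of 16 added to the signal, no filter, a stricter filter, quantile normalization, median centring, no variance trend, array weights, a replicate block, each array left out, the methods' t-test and a fold of 1.5 with an unadjusted p. The proteins of the members were not analysed here.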

Additional observations from a re-analysis of the deposited data

How the results depend on the processing

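The decrease of IL1B and the direction of each called member probe set were the same under each alternative run. Of the member probe sets, 3 were called, and 0 with the replicate block, 0 with the methods' t-test after adjustment, and 1 with a fold over 1.5 and an unadjusted p under 0.05 without a filter. The count was 2 with no variance trend, and 4 with no filter, a stricter filter, quantile normalization or array weights. Leaving out each array in turn gave 1 to 3, with 1 (SERPINB4) without LV-shIL-1β array 2, LV-shIL-1β array 3 or LV-shNC array 3. Of the list genes, 11 were called, and 7 with the replicate block, 4 with the methods' t-test and 3 with the fold criterion, and leaving out each array gave 8 to 10. With no variance trend 8 were called, with no filter or a stricter filter 10, with array weights 12, and with 1 averaged value per gene 13. Over all probe sets, the calls were 1943, 568 with the replicate block, 267 with the methods' t-test, 1348 with no variance trend and 696 to 1808 with 1 array left out.

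With the replicate block, SERPINB4 had adjusted p = 0.0672, SERPINE2 0.0714 and SERPINB1 0.117 (limma). Arrays with the same number did not deviate together (correlations of deviations −0.39, −0.11 and −0.21), and the samples share only a number. With the methods' t-test the adjusted values were 0.144, 0.121 and 0.0839, and with no variance trend SERPINB1 had 0.0810. At 16 added to each signal without a filter, chosen after seeing the data, the dim SERPINE2 probe set kept its call. The cause of these moves was not tested. Signals under 18.6, those of SERPINE2 227487_s_at and SERPINB5 1555551_at among them, limit what can be said of those probe sets.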
